A study of Mus musculus with 20 samples.

Results

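Dimethyl itaconate (DI)-treated macrophages were compared with untreated control (Ctrl) macrophages 1 h after a stimulus of lipopolysaccharide (LPS) and interferon gamma (IFNg), the earliest stimulated time of the series. The comparison uses every library that the labels place in either treatment at that time, which is 4 of the 20 libraries of the series: 2 DI and 2 Ctrl. DI cells received 250 µM of the compound, which the labels spell both "dimethyl" and "demethyl" itaconate, for 12 h and then the stimulus for 1 h. Ctrl cells received the stimulus for 1 h without the compound. All cells were wild-type bone marrow-derived macrophages of C57BL/6 mice, cultured for 7 days in RPMI medium with macrophage colony-stimulating factor. The unstimulated libraries (0 h, 2 DI and 2 Ctrl) and those at 2 h (2 DI and 2 Ctrl) set the 1 h values in time, and all 20 libraries, with those at 4 h and 6 h, share the estimate of the spread. The labels name no doses of LPS or IFNg. They do not say whether the libraries of a group came from separate cultures or animals, so the p-values measure only the spread between these libraries. In bulk RNA, fewer cells of a type and less RNA per cell cannot be told apart.

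LPS binds the receptor complex of CD14, MD-2 and TLR4 and within minutes activates NF-kB and MAP kinases, which switch on immediate-early transcription factors, cytokines, chemokines and, soon after, their own inhibitors. IFNg acts through the JAK-STAT pathway to raise GTPases and other defence genes, and LPS adds type I interferon. Itaconate is made by the enzyme ACOD1 in activated macrophages, and its dimethyl ester is an electrophile that can modify KEAP1, the sensor that otherwise sends the transcription factor NRF2 for degradation. NRF2 with a small MAF partner then drives genes of glutathione, thioredoxin, heme and NADPH metabolism.

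The DI libraries held 4412540 and 6391921 counts and the Ctrl libraries 4491512 and 8572241. In all, 11199 and 11372 of the 22165 genes in the table had no count in the DI libraries, against 10074 and 9484 in the Ctrl libraries. An estimate from the share of low genes at 0 gave 4.26 and 6.89 reads per starting molecule in DI and 1.90 and 1.82 in Ctrl. The part of this difference in the results below was not tested beyond the recount in estimated molecules given in the closing section. Between the 2 libraries of a group, log2 levels correlated at r = 0.926 in DI and 0.974 in Ctrl over 10663 genes. Summed levels of 26 macrophage identity genes were 15946 to 18842 CPM (counts scaled to a common library size with trimmed means of M values) in DI and 18414 to 20812 CPM in Ctrl. Of those genes Cd163 alone was at 0, in both DI libraries. The highest DI sum rested in part on Ctss, at 2934 and 7272 CPM in DI and 3021 and 3194 CPM in Ctrl. Of 25 identity genes tested, 16 had both DI libraries below both Ctrl libraries and 1 had them above (25.3% and 22.9% of all genes). Summed markers of neutrophils (15 genes) were 565 to 699 CPM in DI and 704 to 803 CPM in Ctrl. Those of fibroblasts (9 genes) were 36.4 to 47.6 CPM in DI and 57.4 to 71.8 CPM in Ctrl. Dendritic cell markers (9 genes) summed to 19.4 to 34.1 CPM in DI and 24.9 to 26.2 CPM in Ctrl. Markers of T and NK cells (13 genes), B cells (8) and erythroid, mast or megakaryocytic cells (12) stayed under 12 CPM in every library. The T cell gene Cd3e was at 0 in all 4 libraries, and the B cell gene Cd79a and the dendritic cell gene Flt3 were at 0 in both DI libraries and under 1 CPM in Ctrl. Other members of these lists were not at 0. Cd4 was at 1.81 and 10.2 CPM in DI and 1.76 and 3.04 CPM in Ctrl. Itgax was at 9.44 and 8.64 CPM in DI and 5.48 and 4.72 CPM in Ctrl. Siglech was at 20.9 and 5.99 CPM in DI and 12.9 and 11.4 CPM in Ctrl, and Ebf1 at 4.82 and 2.51 CPM in DI and 2.35 and 3.67 CPM in Ctrl.

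Of 10663 genes tested, 521 (4.89%) differed between DI and Ctrl at 1 h at an adjusted p under 0.05 (edgeR quasi-likelihood test, Benjamini-Hochberg adjustment). DI was higher for 198 genes (1.86%) and lower for 323 (3.03%), and the median log2 fold change of all tested genes was 0.0034. The called genes are those referred to below as higher or lower in DI. Of the higher genes 193 differed at least 2-fold, 67 at least 4-fold and 19 at least 8-fold. Of the lower genes 311 differed at least 2-fold, 133 at least 4-fold and 61 at least 8-fold, but 17 of the 323 had no read in either DI library, so that the size of their fitted change is not fixed by the data. Both DI libraries lay above both Ctrl libraries for 2437 genes (22.9%) and below them for 2697 (25.3%), and 197 of the 198 higher and all 323 lower calls were among these. The count of 521 was 254 without Ctrl replicate 1, 271 without Ctrl replicate 2, 484 without DI replicate 1 and 252 without DI replicate 2.

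**Figure D1:**
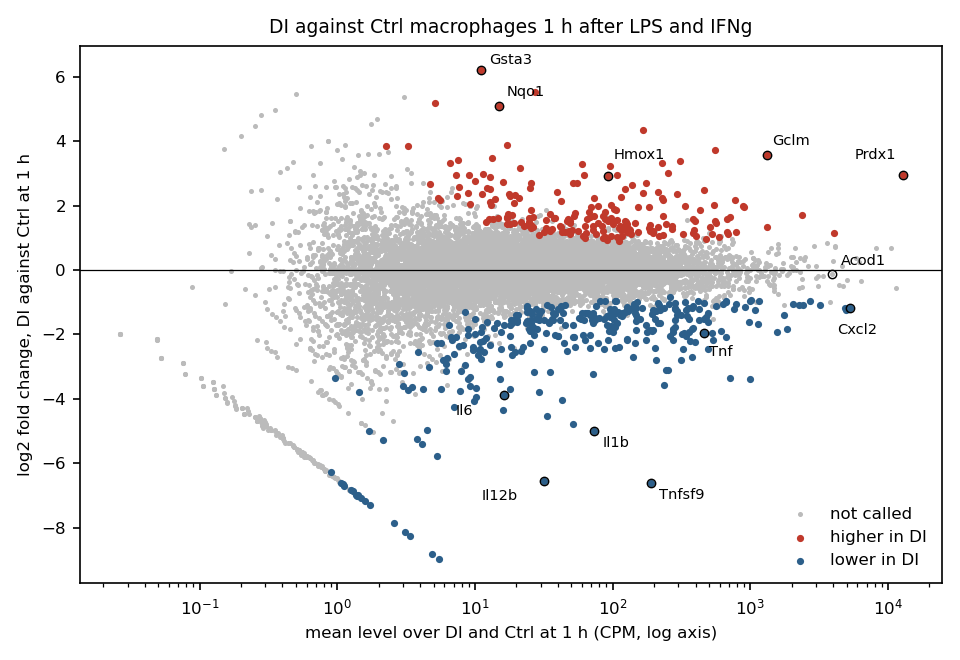
Each point is a tested gene, plotted by its mean level in the 4 libraries at 1 h (CPM, log axis; genes at 0 in all 4 are left out) against its log2 fold change, DI against Ctrl. Red points are the 198 genes higher in DI, blue points the 323 lower in DI and grey points the rest; the slanting line of points at lower left holds genes with no read in DI.

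The largest falls among genes of at least 20 CPM were in Tnfsf9, Il12b, Il1b, Dusp2, Gpr85, Gem, Ier2, Il6, Lipg, Bmp2, Marcksl1 and H2-M2, with log2 fold changes of -6.61 to -3.38. The largest rises were in Gsta3, Serpinb9b, Nqo1, Ptgr1, Panx1, Gclc, Gclm, Gss, Gsr, Srxn1, Clec4n and Prkar2b, with log2 fold changes of 6.21 to 3.24. Cytokines and early signalling genes stand in the group of falls, and enzymes of glutathione and quinone metabolism in the group of rises. By gene list, the lowest median log2 fold changes among the lists of 10 or more tested genes were those of cytokine ligands (-2.18) and chemokines (-1.37), and the highest was that of glutathione and cystine genes (1.60).

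**Figure D2:**
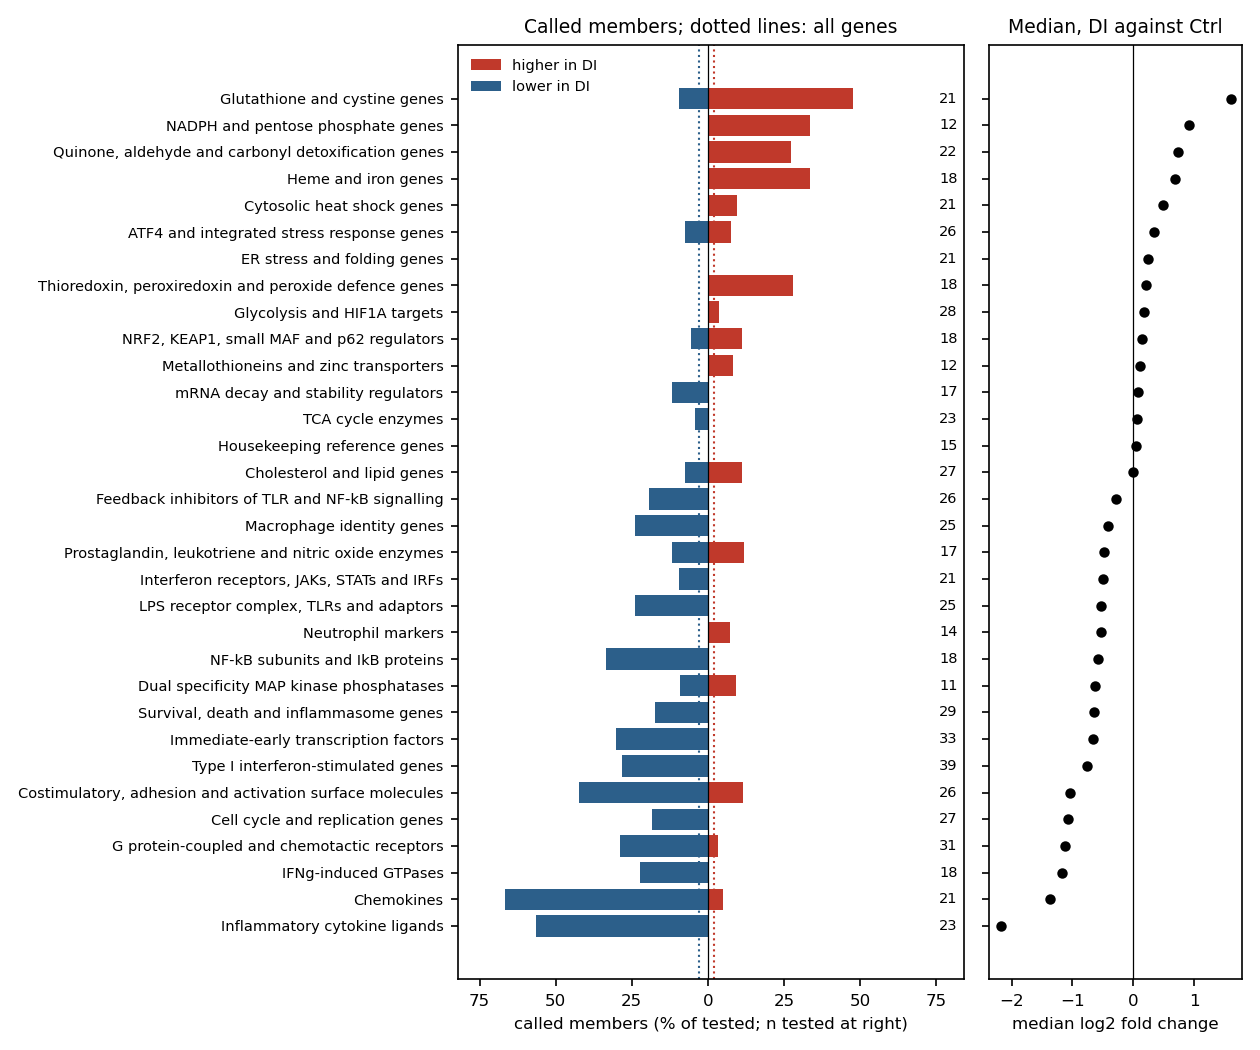
Lists with 10 or more tested members, ordered by median. Left, the percent of tested members called lower (blue, to the left) or higher (red, to the right) in DI, with the number tested at right and dotted lines at the 1.86% and 3.03% of all genes; right, the median log2 fold change, DI against Ctrl, from 1.60 for glutathione genes to -2.18 for cytokine ligands.

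Cytokine ligands made up the list with the lowest median. Of 23 tested, 13 were lower, 0 higher and 10 not called, with a median log2 fold change of -2.18 against 0.0034 over all genes. Without 1 library, 10 to 12 were lower. Of the 44 tested genes in this list or that of chemokines, 27 were lower at 1 h (61.4% against 3.03% of all tested genes) and 1 higher (median -1.49). At 0 h, before the stimulus, 9 of the 44 were lower and 2 higher (median -1.10). At both times 7 were lower, and a test of the difference between the 1 h and 0 h effects called 2 of the 44. Tnfsf9, which encodes the ligand of the costimulatory receptor 4-1BB (gene at chr17:57105287-57107758, GRCm38), was at 4.42 and 3.35 CPM in DI and 243 and 510.2 CPM in Ctrl. Both DI libraries lay far below both Ctrl libraries, at a log2 fold change of -6.61 ± 0.53 (SE; adjusted p = 2.27e-08). Il12b encodes the p40 subunit shared by IL-12 and IL-23 and had 0.402 and 0.837 CPM in DI and 52.3 and 74.2 CPM in Ctrl. The DI values rest on 8 reads in all, and the log2 fold change was -6.56 ± 0.58 (adjusted p = 6.81e-08). Il1b, the gene of the inflammasome substrate interleukin 1 beta (chr2:129364569-129371164), stood at 5.63 and 3.49 CPM in DI and 119.99 and 165 CPM in Ctrl. Its groups did not overlap, and the log2 fold change was -4.99 ± 0.39 (adjusted p = 2.27e-08). Il6 (chr5:30013114-30019975), an acute-phase cytokine, was at 1.41 and 2.51 CPM in DI and 32.7 and 28.2 CPM in Ctrl, again with the groups apart (log2 fold change -3.90 ± 0.45, adjusted p = 3.2e-06).

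Il1a and Tnf had smaller log2 fold changes. Il1a, an alarmin cytokine, was at 130.4 and 69.7 CPM in DI and 512 and 393 CPM in Ctrl, with a log2 fold change of -2.18 ± 0.36 (adjusted p = 0.000264). Tnf, which encodes the first-wave cytokine TNF, was at 184 and 190.1 CPM in DI and 817 and 643 CPM in Ctrl, with both DI libraries below both Ctrl libraries and a log2 fold change of -1.96 ± 0.27 (adjusted p = 2.65e-05). Il10, an anti-inflammatory cytokine, was also lower, at 3.42 and 1.67 CPM in DI and 12.7 and 12.8 CPM in Ctrl. Its call (log2 fold change -2.36 ± 0.66, adjusted p = 0.0364) ended when any library was left out, with adjusted p between 0.0573 without DI replicate 1 and 0.334 without DI replicate 2.

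Among the chemokines 14 of 21 tested were lower in DI, 1 was higher and 6 were not called, with a median of -1.37. The share called was 71.4%, against 4.89% of all tested genes. Leaving out 1 library gave 9 to 12 lower, the 9 without DI replicate 2. Ccl12, Ccl7 and Ccl2 encode attractants of monocytes. Ccl12 was at 59.7 and 44.2 CPM in DI and 378 and 338 CPM in Ctrl (log2 fold change -2.79 ± 0.28, adjusted p = 3.64e-07). Ccl7 was at 156 and 149 CPM in DI and 913 and 747 CPM in Ctrl (log2 fold change -2.45 ± 0.27, adjusted p = 1.17e-06). Ccl2 had 248 and 184 CPM in DI and 863 and 807 CPM in Ctrl (log2 fold change -1.95 ± 0.30, adjusted p = 0.000119). In all 3 genes the groups were well apart. Cxcl1, a neutrophil attractant, was at 32.1 and 34.6 CPM in DI and 174 and 129 CPM in Ctrl, and its log2 fold change was -2.18 ± 0.39 (adjusted p = 0.000712). Cxcl9, an IFNg-induced attractant of T cells, was at 299.99 and 203 CPM in DI and 907 and 1241 CPM in Ctrl, with a log2 fold change of -2.09 ± 0.34 (adjusted p = 0.000269).

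Ccl3 and Ccl4 encode inflammatory attractants of leukocytes, and both were lower. Ccl3 was at 185 and 115 CPM in DI and 589.7 and 556 CPM in Ctrl (log2 fold change -1.93 ± 0.32, adjusted p = 0.000343). Ccl4 was at 584 and 695 CPM in DI and 1608 and 1426 CPM in Ctrl (log2 fold change -1.25 ± 0.27, adjusted p = 0.00511), and its adjusted p was 0.0555 without Ctrl replicate 1 and 0.0653 without DI replicate 1. Cxcl2, a neutrophil attractant, had 3956 and 2565 CPM in DI and 6879.5 and 7892 CPM in Ctrl, groups apart, at a log2 fold change of -1.18 ± 0.29 (adjusted p = 0.0145). That call ended without Ctrl replicate 2 (adjusted p = 0.119) or DI replicate 2 (0.256). Cxcl10, an interferon-induced T cell attractant, overlapped between the groups at 2636 and 3196 CPM in DI and 3916 and 2741 CPM in Ctrl, with a log2 fold change of -0.19 ± 0.24 (adjusted p = 0.804). Cxcl3 was the chemokine that was higher in DI, at 9.24 and 20.5 CPM in DI and 3.92 and 3.36 CPM in Ctrl (log2 fold change 2.05 ± 0.47, adjusted p = 0.00876; chosen after its values were seen). No chemokine was higher without Ctrl replicate 1, Ctrl replicate 2 or DI replicate 2.

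**Figure D3:**
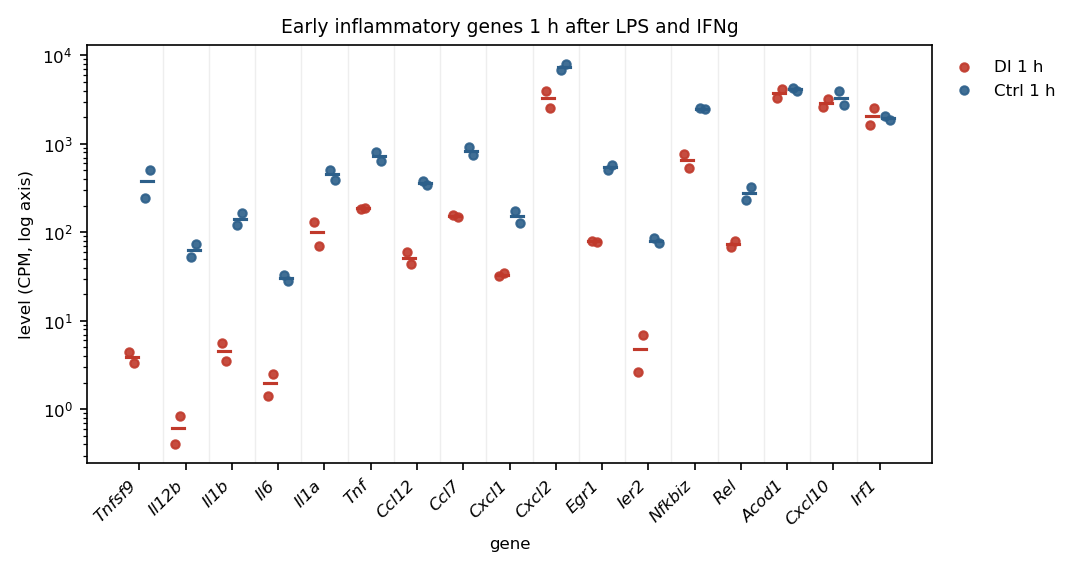
Levels of 17 inflammatory genes at 1 h in each library (CPM, log axis), DI in red left of Ctrl in blue, with a bar at the mean of the 2 libraries. From Tnfsf9 to Rel both DI points lie below both Ctrl points, while Acod1, Cxcl10 and Irf1 overlap between the groups.

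Among receptors of microbial products, Cd14 and several TLRs were lower in DI, and Tlr4 was not called. Of 25 tested genes of the LPS receptor complex, TLRs and adaptors, 6 were lower and none higher (median log2 fold change -0.54). The share lower was 24.0%, against 3.03% of all tested genes. All 6 lower genes were TLRs or Cd14, and 4 to 7 genes were lower without 1 library. Cd14, the LPS co-receptor, was at 29.3 and 14.4 CPM in DI and 124 and 107 CPM in Ctrl (log2 fold change -2.41 ± 0.39, adjusted p = 0.000225). Tlr2, a receptor of bacterial lipopeptides, was at 1 and 1.95 CPM in DI and 18.8 and 13.97 CPM in Ctrl (log2 fold change -3.40 ± 0.52, adjusted p = 0.000129), and its partner Tlr1 at 4.22 and 5.16 CPM in DI and 27.4 and 24.9 CPM in Ctrl (log2 fold change -2.46 ± 0.43, adjusted p = 0.000542). The groups of these 3 genes did not overlap. Tlr4 itself, at 43.8 and 39.2 CPM in DI and 50.8 and 48.7 CPM in Ctrl, had a log2 fold change of -0.26 ± 0.31 and was not called (adjusted p = 0.78). Tlr9, the endosomal DNA sensor, was lower at 55.1 and 38.9 CPM in DI and 152 and 169.96 CPM in Ctrl (log2 fold change -1.78 ± 0.31, adjusted p = 0.000477).

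Surface molecules of activation and receptors for chemoattractants held more lower than higher genes. The shares called were 53.8% and 32.3% of those tested, against 4.89% of all tested genes. Of 26 costimulatory, adhesion and activation molecules, 11 were lower, 3 higher and 12 not called (median -1.04; 8 to 10 lower without 1 library). Icam1, the adhesion ligand of leukocyte integrins, was at 43.8 and 46.9 CPM in DI and 227 and 188 CPM in Ctrl (log2 fold change -2.19 ± 0.25, adjusted p = 2.12e-06). Clec4e, which encodes the C-type lectin Mincle, was at 50.03 and 24.3 CPM in DI and 172 and 312 CPM in Ctrl (log2 fold change -2.71 ± 0.36, adjusted p = 1.86e-05). Clec4n, which encodes the lectin Dectin-2, went the other way at 118 and 97.9 CPM in DI and 9.61 and 12.5 CPM in Ctrl (log2 fold change 3.28 ± 0.34, adjusted p = 5.72e-07), with both DI libraries far above both Ctrl libraries. Of 31 G protein-coupled and chemotactic receptors, 9 were lower and 1 higher (median -1.11). Without 1 library 7 to 9 were lower, and 0 were higher without Ctrl replicate 1, Ctrl replicate 2 or DI replicate 1. Ccr2, the receptor of Ccl2, was at 138 and 119 CPM in DI and 574 and 620.1 CPM in Ctrl (log2 fold change -2.22 ± 0.26, adjusted p = 2.57e-06). Ccrl2, an atypical chemoattractant receptor, was at 32.4 and 39.3 CPM in DI and 187 and 188 CPM in Ctrl (log2 fold change -2.38 ± 0.28, adjusted p = 3.27e-06). Fpr2, a formyl peptide receptor, was at 33.2 and 12.97 CPM in DI and 77.2 and 128 CPM in Ctrl (log2 fold change -2.17 ± 0.36, adjusted p = 0.00029). Hcar2, the receptor of nicotinic acid and hydroxybutyrate, had 2 reads in DI, at 0.402 and 0 CPM in DI and 9.61 and 6.62 CPM in Ctrl (log2 fold change -5.40 ± 0.82, adjusted p = 0.000137).

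Among signalling genes downstream of the receptors most tested members were not called, but lower members were more frequent than over all tested genes (3.03%). Of 18 NF-kB and IkB genes 6 were lower (33.3%) and 0 higher (median -0.59). Without 1 library 3 to 5 were lower, the 3 without Ctrl replicate 1. Nfkbiz encodes IkB zeta, a nuclear cofactor needed for a secondary set of inflammatory genes. Its level was 764 and 536 CPM in DI and 2515 and 2458 CPM in Ctrl (log2 fold change -1.93 ± 0.26, adjusted p = 2.27e-05). Rel, the c-Rel subunit, was at 68.7 and 79.4 CPM in DI and 233 and 326 CPM in Ctrl (log2 fold change -1.92 ± 0.27, adjusted p = 3.6e-05). The inhibitor Nfkbia, a rapid NF-kB target, was at 2153 and 3713 CPM in DI and 6888 and 6909.7 CPM in Ctrl. The groups did not overlap (log2 fold change -1.23 ± 0.26, adjusted p = 0.00457), but the adjusted p was 0.104 without DI replicate 1 and 0.0689 in a fit of the 4 libraries alone. Ikbke, a kinase of the interferon pathway, was at 18.9 and 18.6 CPM in DI and 62.7 and 47.5 CPM in Ctrl (log2 fold change -1.55 ± 0.32, adjusted p = 0.00329; 0.0559 without Ctrl replicate 1 and 0.0531 without DI replicate 2).

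Of 26 feedback inhibitors 5 were lower (19.2% against 3.03% of all tested genes) and 0 higher (median -0.28, with 3 or 4 lower without 1 library). Tnfaip3 encodes A20, a ubiquitin-editing brake on NF-kB, and was at 116 and 126 CPM in DI and 421 and 435 CPM in Ctrl, groups well apart (log2 fold change -1.82 ± 0.34, adjusted p = 0.00122). Traf1, an adaptor of TNF receptors, was at 97.3 and 71.7 CPM in DI and 357 and 265 CPM in Ctrl (log2 fold change -1.88 ± 0.29, adjusted p = 0.000119), and Tnfaip8 at 129 and 126 CPM in DI and 436 and 437 CPM in Ctrl (log2 fold change -1.78 ± 0.28, adjusted p = 0.000139). Ier3, at 31.9 and 39.6 CPM in DI and 107 and 74.6 CPM in Ctrl, was called (log2 fold change -1.34 ± 0.37, adjusted p = 0.0336), but not without Ctrl replicate 1 (0.329), DI replicate 1 (0.174) or DI replicate 2 (0.123). Tank was lower (log2 fold change -1.23 ± 0.30, adjusted p = 0.0125), but not without Ctrl replicate 2 (0.126) or DI replicate 2 (0.177). Socs3, the inhibitor of STAT3 signalling, overlapped between groups at 460.3 and 357 CPM in DI and 389 and 570.2 CPM in Ctrl (adjusted p = 0.854).

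Genes of the immediate-early list were lower for 10 of 33 (30.3% against 3.03% of all tested genes) and higher for 0 (median -0.67). Fewer were lower in each fit without 1 library. The list holds transcription factors and also other early genes such as Gadd45b and Btg2. Btg2 is counted again among the mRNA decay regulators below. Egr1, a zinc-finger factor induced by MAP kinase signalling, was at 79.6 and 78.2 CPM in DI and 505 and 584 CPM in Ctrl. The DI libraries lay close together and far below the Ctrl libraries (log2 fold change -2.79 ± 0.34, adjusted p = 4.79e-06). Ier2 was at 2.61 and 6.97 CPM in DI and 85.5 and 75.9 CPM in Ctrl (log2 fold change -4.03 ± 0.49, adjusted p = 5.68e-06) and Gadd45b, a stress sensor, at 69.3 and 57.5 CPM in DI and 265 and 306 CPM in Ctrl (log2 fold change -2.17 ± 0.32, adjusted p = 7.22e-05). The AP-1 members Fos and Junb were lower with less support. Fos was at 63.7 and 36.8 CPM in DI and 247 and 238 CPM in Ctrl (log2 fold change -2.27 ± 0.47, adjusted p = 0.00343), with an adjusted p of 0.101 without DI replicate 2. Junb was at 224 and 278 CPM in DI and 556 and 838 CPM in Ctrl (log2 fold change -1.47 ± 0.30, adjusted p = 0.00327), with 0.0898 without Ctrl replicate 2 and 0.053 without DI replicate 1. Atf3, an NF-kB antagonist of the ATF family, was not called at 526 and 590.3 CPM in DI and 731 and 668 CPM in Ctrl (log2 fold change -0.33 ± 0.27, adjusted p = 0.643).

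Regulators of mRNA decay and the MAP kinase phosphatases were called in a few members, 11.8% and 18.2% of those tested against 4.89% of all genes. Of 17 decay regulators 2 were lower (median 0.08): Zfp36l1 at 187 and 165 CPM in DI and 1619 and 2036 CPM in Ctrl (log2 fold change -3.38 ± 0.30, adjusted p = 6.17e-08) and Btg2, an antiproliferative factor, at 117 and 214 CPM in DI and 614 and 573 CPM in Ctrl (log2 fold change -1.84 ± 0.32, adjusted p = 0.000609). Zfp36, which encodes tristetraprolin, the destabiliser of Tnf mRNA, had 652 and 669 CPM in DI and 1131 and 1165 CPM in Ctrl, groups apart but not called (log2 fold change -0.80 ± 0.26, adjusted p = 0.0785; called in 3 of 13 alternatives). Among 11 dual specificity phosphatases Dusp2 was lower and Dusp4 higher. Dusp2 was at 3.42 and 3.77 CPM in DI and 105 and 94.01 CPM in Ctrl (log2 fold change -4.78 ± 0.57, adjusted p = 4.79e-06). Dusp4 was at 106 and 103 CPM in DI and 26.9 and 32.98 CPM in Ctrl (log2 fold change 1.80 ± 0.34, adjusted p = 0.00142; 0.0522 without Ctrl replicate 1). Dusp1, at 565 and 703 CPM in DI and 810.1 and 738 CPM in Ctrl, was not called (adjusted p = 0.717).

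A minority of interferon-response genes were called lower in DI, but most had both DI libraries below both Ctrl libraries. This held for 30 of 39 type I interferon genes and 16 of 18 IFNg-induced GTPases, against 25.3% of all genes. Of the 56 genes in either list, 14 were called lower at 1 h (25% against 3.03% of all tested genes, median -0.83). At 0 h, before the stimulus, 19 were called lower (median -1.02). At both times 11 were lower. Among the 39 genes of the type I interferon list, 11 had lower levels and 0 had higher ones (median -0.76), with 7 to 11 lower without 1 library, the 7 without DI replicate 2. Mx1, an antiviral GTPase, was at 153 and 116 CPM in DI and 439 and 607 CPM in Ctrl (log2 fold change -1.96 ± 0.27, adjusted p = 2.47e-05). Ifit1bl1 was at 19.5 and 14.8 CPM in DI and 93.5 and 87.1 CPM in Ctrl (log2 fold change -2.40 ± 0.41, adjusted p = 0.000478), and Isg20, an exonuclease, at 243 and 102 CPM in DI and 574 and 621 CPM in Ctrl (log2 fold change -1.79 ± 0.33, adjusted p = 0.000891). Oasl1, an antiviral relative of the oligoadenylate synthetases, was at 73.3 and 86.6 CPM in DI and 219.6 and 207 CPM in Ctrl (adjusted p = 0.000857). Of 18 IFNg-induced GTPases 4 were lower and 0 higher (median -1.17; 2 lower without DI replicate 2). Gbp7, a guanylate-binding protein, was at 601 and 364 CPM in DI and 1546 and 1388 CPM in Ctrl (log2 fold change -1.60 ± 0.26, adjusted p = 0.000207), and Gbp4 at 25.7 and 13.8 CPM in DI and 70.2 and 94.96 CPM in Ctrl (log2 fold change -2.08 ± 0.32, adjusted p = 0.000121). Gbp8 (adjusted p = 0.00109) was not called without DI replicate 2 (0.0623), and Ifi47 (0.00448) not without Ctrl replicate 1 (0.081) or DI replicate 2 (0.127). The Gbp and Ifit genes have close paralogs, and how the counting divided shared reads is not given in the sources used here.

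Upstream of these genes few members were called. Of 21 interferon receptors, JAKs, STATs and IRFs 2 were lower (median -0.49), or 9.52% against 3.03% of all tested genes. Stat5a, a transcription factor of cytokine receptors, was called (log2 fold change -1.39 ± 0.35, adjusted p = 0.0166), but not without Ctrl replicate 1 (0.188), DI replicate 1 (0.0915) or DI replicate 2 (0.114). Irf1, an early IFNg target, overlapped at 1619 and 2557 CPM in DI and 2081 and 1849 CPM in Ctrl (log2 fold change 0.09 ± 0.26, adjusted p = 0.946).

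Enzymes of prostaglandin and nitric oxide synthesis went in both directions, 2 higher and 2 lower of 17 (median -0.49). The share called was 23.5%, against 4.89% of all tested genes. Nos2, the inducible nitric oxide synthase, was at 0.201 and 1.26 CPM in DI and 9.41 and 11.7 CPM in Ctrl (log2 fold change -3.69 ± 0.60, adjusted p = 0.000264; 0.0591 by limma-voom). Ptgs2, which encodes COX-2, was at 167 and 93.9 CPM in DI and 448 and 578 CPM in Ctrl (log2 fold change -1.98 ± 0.33, adjusted p = 0.00029). Pla2g7, the phospholipase that breaks down platelet-activating factor, was higher at 515 and 565 CPM in DI and 114 and 159 CPM in Ctrl (log2 fold change 1.98 ± 0.28, adjusted p = 3.42e-05). Pla2g4a (adjusted p = 0.0098) was higher too, but not without Ctrl replicate 1 (0.134), Ctrl replicate 2 (0.0795) or DI replicate 2 (0.11). Acod1, the enzyme that makes itaconate, was at 3311 and 4174 CPM in DI and 4242 and 4008 CPM in Ctrl, with overlapping groups (log2 fold change -0.14 ± 0.29, adjusted p = 0.905).

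Kappa B motifs are shown for the lower genes because LPS activates NF-kB. Whether NF-kB had a part in their lower levels was not tested. The motif searched was GGG, any 2 bases, then TTTCC, on both strands of RefSeq promoters (GRCm38.p6, 250 bases before to 50 after the start). It occurs in 1.90% of 27025 genes with a promoter and 2.12% of the 8484 tested genes with a promoter. Among genes lower in DI with a promoter it occurs in 10 of 254 (3.94%), and among those that were also induced in Ctrl by 2 h in 9 of 142 (6.34%). The share over all genes induced in Ctrl by 2 h was not counted. Of genes higher in DI 2 of 167 (1.20%) hold the motif. A match is a description of the letters and not a site of binding. The windows below run 5′ to 3′ on the gene's strand, with the match in capitals. They lie at chr5:30013055-30013094 (Il6), chr5:90891159-90891198 (Cxcl1), chr5:90903787-90903826 (Cxcl2), chr11:23771036-23771075 (Rel) and chr12:55492652-55492691 (Nfkbia).
Il6: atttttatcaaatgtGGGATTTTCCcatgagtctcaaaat
Cxcl1: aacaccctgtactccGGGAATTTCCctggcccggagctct
Cxcl2: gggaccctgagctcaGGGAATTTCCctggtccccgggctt
Rel: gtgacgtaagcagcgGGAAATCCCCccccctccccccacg
Nfkbia: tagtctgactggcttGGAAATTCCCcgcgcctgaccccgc
The match starts 44 bases before the start of Il6, whose log2 fold change was -3.90, and 71 bases before that of Cxcl1 (-2.18). In Rel and Nfkbia the match is on the opposite strand. The interferon-stimulated response element (GAAA, any 2 bases, GAAA, both strands, no overlap with the other motifs imposed) occurs in 4.17% of tested genes with a promoter, in 28 of 254 lower genes (11.02%) and in 7 of 167 higher genes (4.19%). This element also lies before the start of the lower genes Ppp1r15a and Aif1, and of Cxcl10 and Ebf1, which were not called. Windows with it are given for the interferon-response genes Gbp7 at chr3:142530268-142530307 and Ifit1bl1 at chr19:34602048-34602087.
Gbp7: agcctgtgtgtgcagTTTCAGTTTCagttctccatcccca
Ifit1bl1: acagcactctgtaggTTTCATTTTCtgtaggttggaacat

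Redox genes were higher in DI more often than tested genes as a whole (1.86%). Over 5 lists of glutathione, thioredoxin, heme, NADPH and quinone genes, 31 of 91 tested were higher (34.1%), 2 were lower and 58 were not called, with a median log2 fold change of 0.83. At 0 h 33 of the 91 were higher, and 29 of the 31 higher at 1 h were higher at both times. Most of the regulators were not called. Of 18 NRF2, KEAP1, small MAF and p62 genes 2 were higher and 1 lower (median 0.15). The share called was 16.7%, against 4.89% of all tested genes. Mafg, a small MAF partner of NRF2, was at 530.5 and 549 CPM in DI and 258 and 267 CPM in Ctrl (log2 fold change 1.04 ± 0.26, adjusted p = 0.0171), a call that ended when any 1 library was left out, at 0.053 without DI replicate 1 to 0.166 without Ctrl replicate 1. Sqstm1, which encodes the KEAP1-binding autophagy receptor p62, was at 1022 and 1007 CPM in DI and 408 and 273 CPM in Ctrl (log2 fold change 1.58 ± 0.36, adjusted p = 0.00735; 0.165 without Ctrl replicate 2). Maf, a large MAF factor of macrophages, was lower at 450.3 and 637 CPM in DI and 1609 and 1845 CPM in Ctrl (log2 fold change -1.67 ± 0.37, adjusted p = 0.00662; 0.0553 without Ctrl replicate 2 and 0.0869 without DI replicate 1). Nfe2l2, the gene of NRF2, overlapped at 700.2 and 416 CPM in DI and 306 and 489 CPM in Ctrl (log2 fold change 0.49 ± 0.35, adjusted p = 0.56), and Keap1, at 164 and 152 CPM in DI and 189 and 166 CPM in Ctrl, was not called though its groups were apart (adjusted p = 0.87). Both were named after their values were seen.

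Of 21 glutathione and cystine genes 10 were higher, 2 lower and 9 not called (median 1.60), and 9 were higher in each fit without 1 library. Gclc and Gclm encode the catalytic and modifier subunits of glutamate-cysteine ligase, the limiting step of glutathione synthesis. Gclm (chr3:122245487-122267215) was at 2920.1 and 1944 CPM in DI and 248 and 162 CPM in Ctrl (log2 fold change 3.57 ± 0.31, adjusted p = 4.97e-08), and Gclc at 1327 and 718 CPM in DI and 81.95 and 74.3 CPM in Ctrl (log2 fold change 3.71 ± 0.33, adjusted p = 6.17e-08). Gss, which completes the synthesis, was at 20.7 and 28.2 CPM in DI and 2.55 and 1.89 CPM in Ctrl (log2 fold change 3.48 ± 0.46, adjusted p = 1.62e-05), and Gsr, which reduces the oxidised form, at 510.2 and 625 CPM in DI and 55.1 and 53.8 CPM in Ctrl (log2 fold change 3.38 ± 0.29, adjusted p = 4.97e-08). Each of these had both DI libraries well above both Ctrl libraries. Gsta3, a glutathione transferase, had 29.3 and 14.1 CPM in DI and 0.196 and 0.315 CPM in Ctrl, the Ctrl values resting on 4 reads (log2 fold change 6.21 ± 0.80, adjusted p = 1.21e-05). The lower members, named after their values were seen, were Gpx1, a peroxidase, at 82.2 and 60.7 CPM in DI and 204 and 148 CPM in Ctrl (adjusted p = 0.0139) and the glutaredoxin Glrx at 74.95 and 33.8 CPM in DI and 186 and 102 CPM in Ctrl (adjusted p = 0.0237). Neither was called without Ctrl replicate 1 or DI replicate 2. Slc7a11, the cystine importer, was at 219.8 and 204 CPM in DI and 85.1 and 103 CPM in Ctrl, groups apart (log2 fold change 1.17 ± 0.28, adjusted p = 0.0113), but its call ended when any 1 library was left out, at 0.0525 without DI replicate 2 to 0.188 without Ctrl replicate 1.

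**Figure D4:**
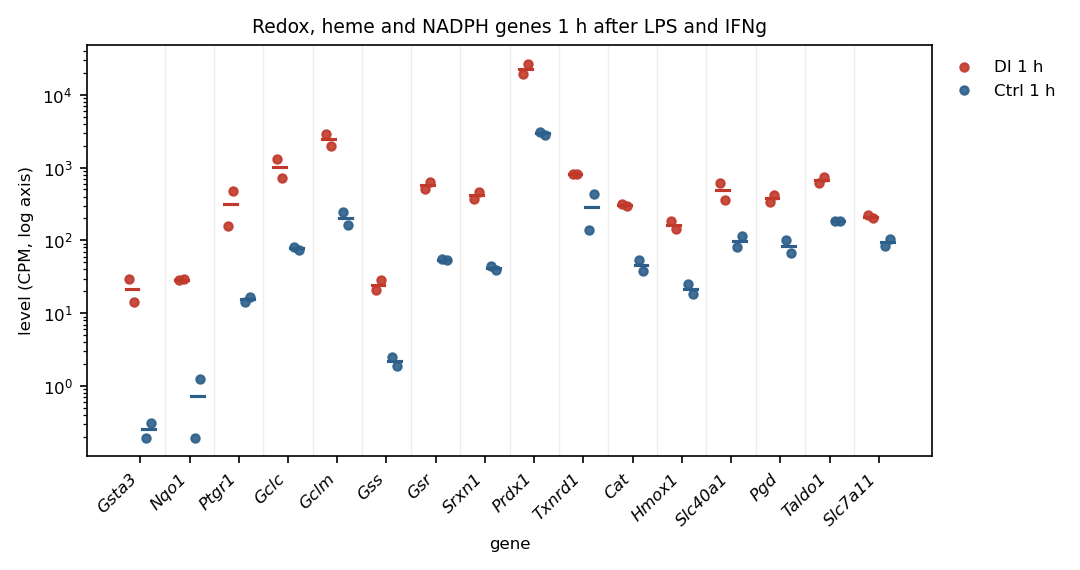
Levels of 16 redox, heme and NADPH genes at 1 h in each library (CPM, log axis), DI in red left of Ctrl in blue, with a bar at the mean of the 2 libraries. Both DI points lie above both Ctrl points for every gene shown.

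Of 18 thioredoxin and peroxiredoxin genes 5 were higher and 0 lower (median 0.20; 4 or 5 without 1 library). Prdx1 (chr4:116685599-116700000), a thiol peroxidase, was at 19235 and 26171 CPM in DI and 3035 and 2832 CPM in Ctrl (log2 fold change 2.95 ± 0.29, adjusted p = 2.79e-07). Srxn1, which repairs oxidised peroxiredoxins, was at 372 and 463 CPM in DI and 44.3 and 39.2 CPM in Ctrl (log2 fold change 3.32 ± 0.29, adjusted p = 5.34e-08), and catalase (Cat) at 312 and 292 CPM in DI and 54.1 and 38.6 CPM in Ctrl (log2 fold change 2.71 ± 0.30, adjusted p = 1.7e-06). Their groups did not overlap, nor did those of the peroxiredoxin gene Prdx6, at 129 and 99.9 CPM in DI and 38.6 and 45.2 CPM in Ctrl (adjusted p = 0.00122). Txnrd1, the cytosolic thioredoxin reductase, was at 825 and 813 CPM in DI and 141 and 431 CPM in Ctrl, with Ctrl libraries far apart from each other. Its log2 fold change was 1.52 ± 0.44 (adjusted p = 0.0463), and its adjusted p was 0.546 without Ctrl replicate 1, 0.11 without DI replicate 1, 0.161 without DI replicate 2, 0.0523 with DESeq2 size factors and 0.113 in a fit of the 4 libraries alone.

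Heme and iron genes were higher for 6 of 18 and lower for 0 (median 0.69; 4 or 5 higher without 1 library). Hmox1, the heme-degrading oxygenase, was at 183 and 144 CPM in DI and 24.9 and 18.3 CPM in Ctrl (log2 fold change 2.93 ± 0.33, adjusted p = 1.51e-06). Slc40a1, the iron exporter ferroportin, was at 622 and 364 CPM in DI and 80.8 and 113 CPM in Ctrl (log2 fold change 2.34 ± 0.32, adjusted p = 2.27e-05), and Alas1, the limiting enzyme of heme synthesis, at 366 and 358 CPM in DI and 85.1 and 49.7 CPM in Ctrl (log2 fold change 2.43 ± 0.39, adjusted p = 0.000213). Blvrb, a biliverdin reductase, was higher (log2 fold change 1.49 ± 0.33, adjusted p = 0.00706), but not without Ctrl replicate 2 (0.123) or DI replicate 1 (0.0827). Of 12 NADPH and pentose phosphate genes 4 were higher and 0 lower (median 0.91; 2 higher without Ctrl replicate 2). Pgd, of the oxidative branch, was at 334 and 419.6 CPM in DI and 102 and 67.02 CPM in Ctrl (log2 fold change 2.16 ± 0.28, adjusted p = 1.22e-05), and Taldo1, of the non-oxidative branch, at 619.7 and 744 CPM in DI and 187 and 187 CPM in Ctrl (log2 fold change 1.87 ± 0.28, adjusted p = 7.82e-05). G6pdx, the entry enzyme, was at 177 and 149 CPM in DI and 84.5 and 52.5 CPM in Ctrl (adjusted p = 0.0387), and its call ended when any 1 library was left out, at 0.0577 without Ctrl replicate 1 to 0.39 without Ctrl replicate 2. Me1, the malic enzyme, was at 15.5 and 16.7 CPM in DI and 2.94 and 1.37 CPM in Ctrl (adjusted p = 0.00449; 0.146 without Ctrl replicate 2).

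Quinone, aldehyde and carbonyl detoxification genes were higher for 6 of 22 and lower for 0 (median 0.73; 3 higher without Ctrl replicate 2). Nqo1, a quinone reductase, was at 28.7 and 29.3 CPM in DI and 0.196 and 1.26 CPM in Ctrl, with 13 reads behind the Ctrl values (log2 fold change 5.09 ± 0.61, adjusted p = 4.74e-06). Ptgr1, which reduces reactive aldehydes and prostaglandins, was at 159.9 and 476 CPM in DI and 14.3 and 16.6 CPM in Ctrl, with unequal DI libraries that both lay far above Ctrl (log2 fold change 4.36 ± 0.41, adjusted p = 1.14e-07). Akr1b8, an aldose reductase relative, was at 106 and 84.7 CPM in DI and 14.5 and 15.02 CPM in Ctrl (log2 fold change 2.69 ± 0.45, adjusted p = 0.000332). Cbr3, a carbonyl reductase, was at 30.5 and 29.2 CPM in DI and 7.45 and 4.73 CPM in Ctrl (adjusted p = 0.00263; 0.0968 without Ctrl replicate 2).

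Among the largest rises outside the redox lists, Serpinb9b, a serine protease inhibitor with close paralogs, was at 52.8 and 55.2 CPM in DI and 0.196 and 1.79 CPM in Ctrl, the Ctrl values resting on 18 reads (log2 fold change 5.53 ± 0.55, adjusted p = 2.79e-07). Panx1, which forms ATP-releasing channels, was at 36.8 and 27.6 CPM in DI and 2.55 and 1.89 CPM in Ctrl (log2 fold change 3.87 ± 0.45, adjusted p = 2.89e-06). Prkar2b, a regulatory subunit of protein kinase A, was at 179 and 165 CPM in DI and 19.4 and 17.1 CPM in Ctrl (log2 fold change 3.24 ± 0.33, adjusted p = 3.64e-07). The libraries of all 3 were apart. Among the largest falls, Marcksl1, an actin-associated protein, was at 36.97 and 35.4 CPM in DI and 458 and 407 CPM in Ctrl (log2 fold change -3.58 ± 0.28, adjusted p = 2.27e-08). Gem, a small GTPase, was at 0.603 and 2.23 CPM in DI and 19.6 and 41.7 CPM in Ctrl (log2 fold change -4.34 ± 0.62, adjusted p = 4.49e-05), and Lipg, an endothelial-type lipase, at 3.82 and 4.04 CPM in DI and 43.7 and 65.7 CPM in Ctrl (log2 fold change -3.79 ± 0.37, adjusted p = 2.54e-07). Gpr85, an orphan receptor, was at 3.62 and 1.95 CPM in DI and 62.5 and 64.3 CPM in Ctrl (log2 fold change -4.54 ± 0.39, adjusted p = 4.97e-08), Bmp2 at 4.22 and 1.12 CPM in DI and 35.1 and 31.6 CPM in Ctrl (log2 fold change -3.70 ± 0.65, adjusted p = 0.000695) and H2-M2, a non-classical histocompatibility gene, at 4.42 and 1.12 CPM in DI and 27.1 and 27.9 CPM in Ctrl (log2 fold change -3.38 ± 0.47, adjusted p = 3.66e-05).

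The core of the antioxidant response element, the letters TGACNNNGC to which NRF2 and small MAF proteins bind, was searched on both strands of the same promoters. It occurs in 13.99% of all 27025 genes with a promoter, 17.04% of tested genes, 40 of 167 higher genes (23.95%) and 41 of 254 lower genes (16.1%). Of the higher genes in the 5 redox lists, 11 of 24 with a promoter hold it (45.8%). Those lists were chosen with earlier results of these data known. The share among their members not called was not counted, so the 45.8% cannot be tied to the higher levels. Windows are given for members of those lists, at chr3:122245408-122245446 (Gclm), chr1:21240449-21240487 (Gsta3), chr4:116685451-116685489 (Prdx1), chr10:82859099-82859137 (Txnrd1) and chrX:74428914-74428952 (G6pdx), with the match in capitals and the gene's strand 5′ to 3′.
Gclm: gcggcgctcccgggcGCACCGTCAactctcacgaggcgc
Gsta3: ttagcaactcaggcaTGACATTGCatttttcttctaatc
Prdx1: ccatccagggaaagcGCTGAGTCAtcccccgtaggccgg
Txnrd1: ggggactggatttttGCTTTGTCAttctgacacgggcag
G6pdx: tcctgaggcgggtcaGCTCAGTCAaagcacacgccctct
Gsta3, with a log2 fold change of 6.21, has the match on its own strand, 121 bases before its start, and the others have it on the opposite strand, 57 to 134 bases before theirs. The same search finds the letters in the lower genes Ccrl2, H2-M2, Tlr9, Nfkbia and C1qb. It also finds them in Cxcl10 and Dusp1, which were not called.

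Other stress programs were called in few members. The share called was 15.4% for ATF4, 9.52% for heat shock, 0% for ER stress and 8.33% for metallothionein and zinc genes. Over all tested genes it was 4.89%. Of 26 ATF4 and integrated stress response genes 2 were higher and 2 lower (median 0.35). Atf4 was at 499.5 and 1149 CPM in DI and 243 and 359 CPM in Ctrl (log2 fold change 1.45 ± 0.33, adjusted p = 0.00694), with an adjusted p of 0.375 without DI replicate 2 and 0.173 without Ctrl replicate 1. Ppp1r15a, which encodes the eIF2 alpha phosphatase subunit GADD34, was lower at 113 and 88.1 CPM in DI and 589 and 726 CPM in Ctrl (log2 fold change -2.71 ± 0.30, adjusted p = 1.51e-06). Nupr1 was lower (log2 fold change -1.63 ± 0.42, adjusted p = 0.0222), but not without Ctrl replicate 2 (0.19), DI replicate 1 (0.163) or DI replicate 2 (0.072). Trib3, an ATF4 target, was not called at 38.98 and 23.4 CPM in DI and 20.2 and 15.2 CPM in Ctrl (adjusted p = 0.307). Of 21 cytosolic heat shock genes 2 were higher (median 0.48). Dnajb4 had an adjusted p of 0.00637, but 0.145 without Ctrl replicate 1 and 0.293 without DI replicate 2, and Hsph1 one of 0.0397, but 0.215 to 0.315 without Ctrl replicate 1, Ctrl replicate 2 or DI replicate 2. Hspa1a was low and not called at 4.82 and 2.23 CPM in DI and 4.12 and 5.36 CPM in Ctrl. Of 21 ER stress genes none was called (median 0.23). Of 12 metallothionein and zinc genes Slc30a1, the zinc exporter, was higher at 71.3 and 70.99 CPM in DI and 28.8 and 19.1 CPM in Ctrl (adjusted p = 0.00432; 0.139 without Ctrl replicate 2).

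Lists of cell state and metabolism were called in a minority of members. Over all tested genes 1.86% were higher and 3.03% lower. Of 25 macrophage identity genes 6 were lower and 0 higher (median -0.42), but 2 were lower without Ctrl replicate 1 and 1 without DI replicate 2. Aif1 had 260.4 and 211 CPM in DI and 777 and 592 CPM in Ctrl (log2 fold change -1.54 ± 0.33, adjusted p = 0.00529; 0.0752 without Ctrl replicate 1 and 0.108 without DI replicate 2). C1qb, of complement C1q, was at 635 and 494 CPM in DI and 1479 and 1029.7 CPM in Ctrl (adjusted p = 0.0126; 0.236 without Ctrl replicate 1 and 0.191 without DI replicate 2), and its partner C1qc at 434 and 467 CPM in DI and 1003 and 764 CPM in Ctrl (adjusted p = 0.0264; 0.131 to 0.301 without Ctrl replicate 1 or either DI library). Of 29 survival and inflammasome genes 5 were lower (median -0.64; 3 in each fit without 1 library). Nlrp3, the inflammasome sensor, averaged 104 ± 5.44 CPM in DI and 301 ± 42.9 CPM in Ctrl (SD, n = 2 each), with the groups apart (log2 fold change -1.54 ± 0.26, adjusted p = 0.000413). Bcl2a1d, an antiapoptotic gene, had no read in either DI library, against 7.06 and 12.5 CPM in Ctrl, but the Bcl2a1 paralogs are nearly identical and reads may be divided between them. Bcl2a1b was at 14.3 and 8.51 CPM in DI and 46.7 and 34.03 CPM in Ctrl (adjusted p = 0.00259; 0.0981 without DI replicate 2), and Cflar was called (adjusted p = 0.02) but not when any 1 library was left out (0.0561 to 0.199).

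Of 27 cell cycle genes 5 were lower (median -1.08), but 1 or 2 without 1 library. Ccnd2, a cyclin of the G1 phase, was at 110.1 and 89.8 CPM in DI and 504 and 587 CPM in Ctrl (log2 fold change -2.45 ± 0.26, adjusted p = 8.15e-07). Mki67, Mcm3 and Cdkn1a had adjusted p of 0.0161, 0.0185 and 0.0372. These calls ended without Ctrl replicate 2 or DI replicate 2 in all 3 (0.063 to 0.426), without Ctrl replicate 1 in Mcm3 (0.157) and Cdkn1a (0.0877), and without DI replicate 1 in Mki67 (0.0851) and Mcm3 (0.141). Of 27 cholesterol and lipid genes 3 were higher and 2 lower (median -0.0053). Ch25h, the cholesterol 25-hydroxylase, was lower at 6.63 and 4.18 CPM in DI and 39.996 and 56.4 CPM in Ctrl (log2 fold change -3.18 ± 0.49, adjusted p = 0.000155). Cd36, a scavenger receptor, was higher at 1604 and 2196 CPM in DI and 626 and 887 CPM in Ctrl (adjusted p = 0.0198; 0.278 without Ctrl replicate 1 and 0.216 without DI replicate 2). Mylip, a ubiquitin ligase of the LDL receptor, was higher (adjusted p = 0.0283), but not without Ctrl replicate 1 (0.161), Ctrl replicate 2 (0.222) or DI replicate 1 (0.23).

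Of 28 glycolysis and HIF1A targets 1 was higher (median 0.17), or 3.57% against 1.86% of all tested genes. It was the glucose transporter Slc2a1, at 99.5 and 143 CPM in DI and 22.7 and 29.1 CPM in Ctrl (log2 fold change 2.22 ± 0.31, adjusted p = 3.09e-05). Of 23 genes listed for the TCA cycle and linked steps 1 was lower (median 0.07), or 4.35% against 3.03% of all tested genes. It was Mdh1, the cytosolic malate dehydrogenase, and Mdh2, the mitochondrial form, was not called. Mdh1 had a log2 fold change of -1.32 (adjusted p = 0.0208). Its call ended without Ctrl replicate 1 (log2 fold change -1.08), DI replicate 1 (-1.10) or DI replicate 2 (-1.60). None of 15 housekeeping genes was called (median 0.04). Actb, on which the libraries were pooled, was at 9688 and 8734 CPM in DI and 17869 and 9595 CPM in Ctrl (adjusted p = 0.354), and Gapdh at 34.8 and 34.03 CPM in DI and 86.1 and 55.9 CPM in Ctrl (log2 fold change -1.04 ± 0.33, adjusted p = 0.0742; called in 2 of 13 alternatives). Of 14 neutrophil markers tested, 9 had both DI libraries below both Ctrl libraries and 1 had them above (25.3% and 22.9% of all genes), with a median log2 fold change of -0.54. The called one was Mmp8, the marker with its DI libraries above, at 174 and 152 CPM in DI and 58.03 and 68.9 CPM in Ctrl (adjusted p = 0.00391; 0.0972 without Ctrl replicate 1). Ngp, a granule protein, was at 28.1 and 8.93 CPM in DI and 46.9 and 40.4 CPM in Ctrl and was not called (log2 fold change -1.25 ± 0.40, adjusted p = 0.0727), but passed in 6 of 13 alternatives, and Retnlg, at 1.41 and 1.81 CPM in DI and 12.7 and 9.77 CPM in Ctrl (adjusted p = 0.188), passed in 3. Lck was the called gene of 3 T and NK genes, at 0 in both DI libraries and 4.51 and 2.42 CPM in Ctrl (adjusted p = 0.013; 0.0693 without Ctrl replicate 1, 0.0644 without DI replicate 1 and 0.148 without DI replicate 2). None of 3 B cell, 6 dendritic cell, 6 fibroblast and 1 erythroid, mast or megakaryocyte gene was called.

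The 1 h differences were set beside the response to the stimulus, using classes from the Ctrl libraries at 2 h and 0 h, none of which enters the 1 h comparison. Of 905 genes induced at least 2-fold in Ctrl by 2 h at an adjusted p under 0.05, 180 were lower (19.9%) and 30 higher (3.31%) in DI at 1 h, with a median log2 fold change of -0.48. These 180 were 55.7% of all lower calls. Of 313 repressed genes 11 were higher and 3 lower (median 0.30). Of the other 9445 genes 157 were higher (1.66%) and 140 lower (1.48%; median 0.03). The lower calls thus stood in the induced class at 19.9% against 3.03% of all tested genes. The share higher was 3.31% in the induced class, 3.51% in the repressed class and 1.66% outside both, against 1.86% of all tested genes. Outside both classes were 157 of the 198 higher calls (79.3%) and 9445 of the 10663 tested genes.

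Before the stimulus, at 0 h, 384 genes (3.60%) differed between DI and Ctrl, 153 higher (1.43%) and 231 lower (2.17%). The 0 h and 1 h comparisons share no library. Of the higher genes 100 were called at both times, 50.5% of those at 1 h and 65.4% of those at 0 h. Of the lower genes 125 were called at both, 38.7% of those at 1 h and 54.1% of those at 0 h. No gene was lower at 0 h and higher at 1 h, and 5 were higher in DI at 0 h and lower at 1 h: Ppp1r15a, Tnfaip3, Egr2, Traf1 and Cxcl2 (Egr2, at an adjusted p of 0.0496 at 1 h, was named after its values were seen; the 1 h call of Cxcl2 ended without Ctrl replicate 2, at 0.119, or DI replicate 2, at 0.256). At 2 h, 110 of the 198 higher genes (55.6%) and 176 of the 323 lower genes (54.5%) were called in the same direction, which is 45.5% of 242 and 41.6% of 423 calls there.

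A test of the difference between the DI effects at 1 h and 0 h called 27 genes (0.253%; 518 at an unadjusted p under 0.05), 23 with a lower effect at 1 h (0.216%) and 4 with a higher one (0.0375%). The redox lists gave 1 such gene of 91, Slc7a11. Ppp1r15a was at 31.8 and 43.3 CPM in DI and 13.8 and 10.7 CPM in Ctrl at 0 h, and at 113 and 88.1 CPM in DI and 589 and 726 CPM in Ctrl at 1 h. The order of the groups is turned round between the times, and the effect differed by -4.33 ± 0.42 (log2, SE; adjusted p = 1.67e-06). Tnfaip3 had 46.1 and 56.6 CPM in DI and 15.3 and 18.4 CPM in Ctrl at 0 h and 116 and 126 CPM in DI and 421 and 435 CPM in Ctrl at 1 h, a difference of -3.43 ± 0.49 (adjusted p = 0.000409). Egr1 was at 5.66 and 10.6 CPM in DI and 4.64 and 3.12 CPM in Ctrl at 0 h and 79.6 and 78.2 CPM in DI and 505 and 584 CPM in Ctrl at 1 h, a difference of -3.86 ± 0.49 (adjusted p = 0.00011).

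Tnfsf9 gave the lowest difference, at 7.42 and 7.95 CPM in DI and 4.88 and 4.44 CPM in Ctrl at 0 h and 4.42 and 3.35 CPM in DI and 243 and 510.2 CPM in Ctrl at 1 h, that is -7.33 ± 0.68 (adjusted p = 1.02e-06). Its DI libraries stayed low at both times while its Ctrl libraries were high at 1 h. Cxcl2 was at 23.9 and 32.5 CPM in DI and 13.04 and 9.48 CPM in Ctrl at 0 h and 3956 and 2565 CPM in DI and 6879.5 and 7892 CPM in Ctrl at 1 h, with both groups far higher at 1 h and their order changed (difference -2.50 ± 0.42, adjusted p = 0.00341). Slc7a11 was at 66.1 and 69.8 CPM in DI and 2.24 and 2.02 CPM in Ctrl at 0 h and 219.8 and 204 CPM in DI and 85.1 and 103 CPM in Ctrl at 1 h: DI was above Ctrl at both times, by a log2 fold change of 4.98 ± 0.35 at 0 h and 1.17 ± 0.28 at 1 h (difference -3.81 ± 0.43, adjusted p = 1.53e-05). Arid5a, an mRNA stabiliser of Il6, went the other way, with no read in DI and 1.76 and 2.02 CPM in Ctrl at 0 h, and 62.3 and 58.2 CPM in DI and 83.7 and 89.5 CPM in Ctrl at 1 h (chosen after its values were seen). Between the effects at 1 h and 2 h no gene passed (0%, edgeR; 721 at an unadjusted p under 0.05, smallest adjusted p 0.119; 0 by limma-voom and 18 by DESeq2).

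**Figure D5:**
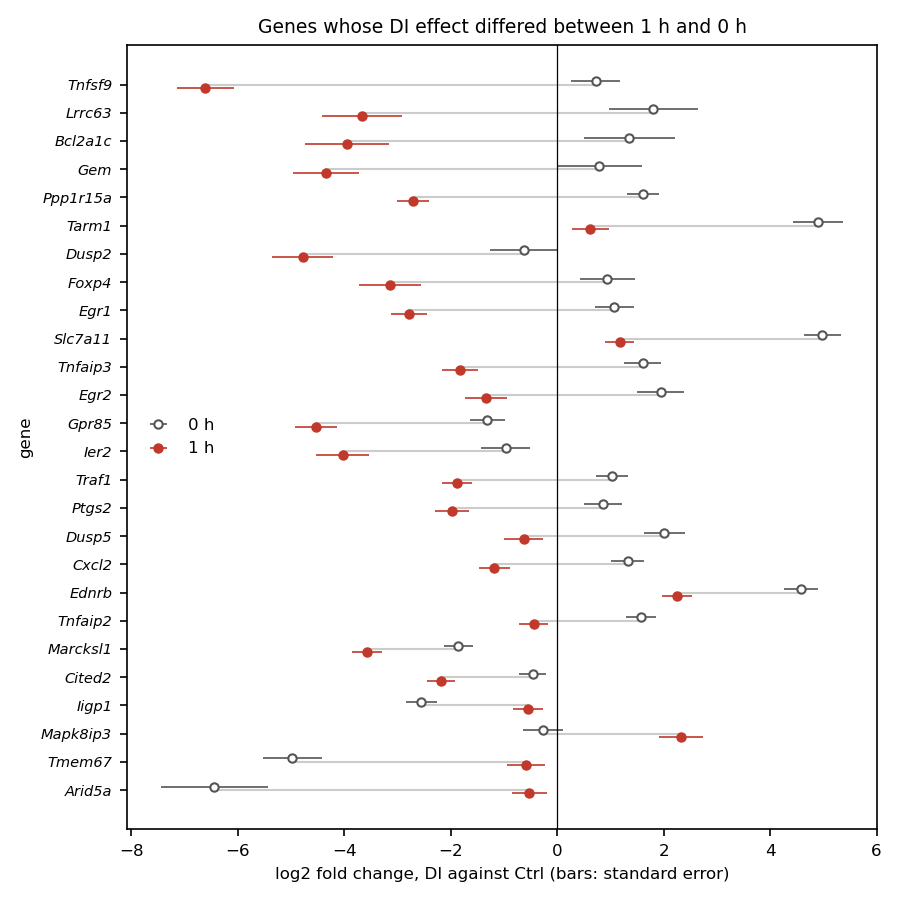
Genes whose DI effect differed between 1 h and 0 h (26 of 27 are drawn), ordered by that difference, with the log2 fold change of DI against Ctrl at 0 h (open grey) and at 1 h (filled red); bars are standard errors and a grey line joins the 2 times. For 22 genes the 1 h point lies to the left of the 0 h point, and for Ppp1r15a, Tnfaip3, Egr2, Traf1 and Cxcl2 the points lie on opposite sides of 0 and both were called.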

How the data were processed

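Poly(A) RNA was copied from its 3′ ends with barcoded oligo-dT primers, pooled by Actb and amplified in 12 PCR cycles, per the labels' protocols, which name no molecular identifiers. The authors deposited raw counts per gene. STAR, HTSeq, DESeq2 and mm10 are named without versions in the submitters' processing notes, and the use of strand in counting is not given in the sources used here. All 20 libraries were fitted together with edgeR 4.0.16 (R 4.3.3), after filterByExpr (10663 of 22165 genes) and scaling by trimmed means of M values, with a quasi-likelihood test per contrast and Benjamini-Hochberg adjustment at 0.05. The fit was also run on simulated counts with a single dispersion for all genes and libraries. Those counts lacked the excess of genes at 0 in the DI libraries, so that run does not bear on the calls here. Named genes were up to 12 rises and 12 falls of at least 20 CPM with libraries apart, a panel of 42 genes and up to 4 genes of lowest p from each other list. Some items are not reported here. The members and lists were chosen with earlier results of these data known. Alternatives used limma 3.58.1, DESeq2 1.42.0, other scalings and filters, a replicate block, the compared groups alone, estimated molecules and leaving out each library. With 2 libraries a group the spread is estimated mainly across genes, and PCR copies are not independent molecules.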

Additional observations from a re-analysis of the deposited data

Results flagged for a closer look

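The DI effect differed between 1 h and 0 h for 27 genes (edgeR quasi-likelihood test of the difference, adjusted p under 0.05), given here for 26 of them as the log2 effect at 1 h minus that at 0 h. Among genes of signalling and transcription the difference was -4.33 for Ppp1r15a, -4.15 for Dusp2, -3.86 for Egr1, -3.43 for Tnfaip3, -3.27 for Egr2, -3.07 for Ier2, -2.91 for Traf1, -2.64 for Dusp5, -4.08 for Foxp4 and -1.72 for Cited2. Among ligands, enzymes and inflammatory genes it was -7.33 for Tnfsf9, -2.85 for Ptgs2, -2.50 for Cxcl2, -2.01 for Tnfaip2 and -5.31 for Bcl2a1c, a gene with near-identical paralogs. For surface, transport and other genes it was -5.48 for Lrrc63, -5.13 for Gem, -4.28 for Tarm1, -3.81 for Slc7a11, -3.23 for Gpr85, -2.34 for Ednrb and -1.72 for Marcksl1. The 4 positive differences were 2.00 for Iigp1, 2.59 for Mapk8ip3, 4.39 for Tmem67 and 5.91 for Arid5a. The value for Arid5a depends on the prior count, because neither DI library at 0 h had a read. Genes outside the fixed naming rule were named because this test called them.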

How the results depend on the processing

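The 521 calls at 1 h became 803 by DESeq2 and 833 in estimated molecules, and 252 to 484 when 1 library was left out. The 384 calls at 0 h became 603 by DESeq2, 728 in estimated molecules, 91 in a fit of the compared groups alone and 186 to 309 without 1 library. The 27 differences between 1 h and 0 h became 60 with no filter, 15 by limma-voom, 51 by DESeq2, 13 with the compared groups alone and 14 to 28 without 1 library. The 0 differences between 1 h and 2 h became 37 with no filter, 18 by DESeq2 and 0 to 11 without 1 library. Apart from the construction of each alternative, the cause was not tested. The other alternatives gave 355 to 695 calls at 1 h. With the replicate block the counts were 493 at 1 h, 380 at 0 h and 22 for the difference from 0 h, and the adjusted p at 1 h was 0.0656 for Txnrd1 and 0.0512 for Il10. The labels do not say that replicate numbers mark a shared batch, and deviations of same-numbered 1 h libraries correlated at 0.053 over 10663 genes. Of 118 called named genes 74 kept their call in every alternative and 44 lost it in at least 1. For 0 of 169 named genes did the sign change where the main fit or the alternative called the gene. Genes called in neither could change sign, such as Irf1 with log2 fold changes from -0.29 to 0.38. Another 12 named genes, not called, passed in at least 1 alternative, among them Zfp36, Gapdh, Ngp, Retnlg and Col1a2. With scaling on genes of at least 32 CPM the median difference between 1 h and 2 h was -0.11 against 0.016. With 2 libraries a group, genes at a few reads in DI limit the size of the lower changes.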
